A study of Mus musculus with 6 samples.

Results

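Peaks of histone H3 lysine 27 acetylation (H3K27ac) that were listed in the quadriceps of sedentary mice and in no overlapping position in detrained mice are described here. H3K27ac was mapped by chromatin immunoprecipitation sequencing in 2 groups of wild-type male mice of strain C57BL/6, all 8 weeks old when they were housed with or without a running wheel. Sedentary mice had no wheel for 4 weeks. Detrained mice ran voluntarily for 4 weeks and were killed 72 hours after their last bout. Each group had 2 H3K27ac libraries, each made from a single quadriceps of 1 animal, and 1 input library of chromatin that was not immunoprecipitated. The labels name the strain of the inputs C57BL/7 and C57BL/8, whereas the methods name C57BL/6J alone, so these entries may be errors of numbering. The authors called 1 peak list per group on both libraries pooled, so the lists used here hold both mice of a group together. No test between the groups is given here.

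A peak was taken as sedentary-only when its Peak Score, the tags of both pooled libraries in the interval per 10000000 tags, was 20 or more and when no detrained peak of any score overlapped it by even 1 bp. Of 46988 sedentary peaks, 34089 scored 20 or more and 4222 of these (12.4%) met the rule. Of 40721 detrained peaks, 33423 scored 20 or more, and the mirror rule left 3124 of these (9.35%), the detrained-only peaks. The peaks were thus chosen by the pooled Peak Score and by absence from the other list, so their counts, scores and directions are descriptions. Counts of sedentary peaks per gene or gene list cover those of 20 or more. The detrained table holds no value at these intervals, and absence from a list does not mean absence of acetylation.

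H3K27ac is placed by the acetyltransferases p300 and CBP and marks active enhancers and promoters. Promoters lie at the start of a gene, whereas enhancers lie in introns or between genes and are used more selectively by a tissue. In skeletal muscle, enhancers are read by myogenic bHLH factors at E-boxes and by MEF2, and their acetylation responds to nerve activity, hormones and exercise. The tissue was whole muscle, in which fewer nuclei of a cell type and less acetylation per nucleus cannot be told apart.

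The sequences below show what sat inside the sedentary-only peaks that carry the description. All come from the RefSeq GRCm38 (mm10) genome, are written 5′ to 3′, and lie in no annotated exon. The first stretches come from near the middle of high intronic peaks, at Map4, Pik3r1 and Ppp2r2a, and from the higher of both peaks at Kcnj8. Capitals mark letters of the AP-1 motif (TGANTCA), of the myogenic E-box (CAGCTG) or of the TEAD motif (GGAATG), which respectively stood in 15.1%, 29.1% and 24.6% of the middle 500 bp of all 34089 sedentary peaks, on either strand.

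Map4 (chr9:110066007-110066163, plus strand): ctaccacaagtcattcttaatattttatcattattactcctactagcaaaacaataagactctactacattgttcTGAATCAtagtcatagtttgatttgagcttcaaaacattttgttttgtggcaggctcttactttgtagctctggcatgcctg
Pik3r1 (chr13:101738515-101738670, plus strand): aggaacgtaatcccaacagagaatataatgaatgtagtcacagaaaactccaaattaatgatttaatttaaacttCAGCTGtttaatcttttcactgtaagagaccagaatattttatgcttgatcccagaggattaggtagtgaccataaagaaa
Ppp2r2a (chr14:67042587-67042742, plus strand): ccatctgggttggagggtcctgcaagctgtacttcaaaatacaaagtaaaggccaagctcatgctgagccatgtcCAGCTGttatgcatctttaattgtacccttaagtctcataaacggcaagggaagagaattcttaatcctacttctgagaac
Kcnj8 (chr6:142568385-142568540, plus strand): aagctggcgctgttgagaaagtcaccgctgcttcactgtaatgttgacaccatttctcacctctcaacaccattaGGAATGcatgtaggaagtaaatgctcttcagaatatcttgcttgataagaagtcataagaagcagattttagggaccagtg

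The next stretches, from peaks assigned to Map3k20, Eya4, Fbn1 and Stac3, are shown because they hold letters of factors with a known part in muscle or in its matrix cells. Capitals mark MEF2 letters (CTATTTNTA, here on the other strand, in 3.70% of all sedentary peaks), ERR letters (TCAAGGTCA, 1.38%) or AP-1 letters.

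Map3k20 (chr2:72309568-72309726, plus strand): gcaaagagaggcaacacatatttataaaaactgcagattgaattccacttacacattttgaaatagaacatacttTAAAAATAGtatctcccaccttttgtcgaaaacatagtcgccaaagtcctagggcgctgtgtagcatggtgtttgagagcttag
Eya4 (chr10:23228048-23228206, plus strand): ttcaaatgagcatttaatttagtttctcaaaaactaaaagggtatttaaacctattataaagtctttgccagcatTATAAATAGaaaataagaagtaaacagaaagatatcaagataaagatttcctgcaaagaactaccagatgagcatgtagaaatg
Fbn1 (chr2:125428995-125429153, plus strand): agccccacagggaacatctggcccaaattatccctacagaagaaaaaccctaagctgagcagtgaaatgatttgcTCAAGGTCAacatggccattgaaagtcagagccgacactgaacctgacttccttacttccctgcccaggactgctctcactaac
Stac3 (chr10:127496345-127496501, plus strand): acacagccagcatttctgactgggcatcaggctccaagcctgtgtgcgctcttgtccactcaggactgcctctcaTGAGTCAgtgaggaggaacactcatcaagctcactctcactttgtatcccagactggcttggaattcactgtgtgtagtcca

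Of the 6 highest sedentary-only promoter peaks, 3 lay at Snhg5, Arhgef3 and Ift27, and the 250 bases before their start sites, from the RefSeq promoter table, show how unlike promoters in this set were. Capitals mark NFY letters (CCAAT or ATTGG) and SP/KLF letters (GGGCGG or CCGCCC), held by 37.4% and 35.7% of 32851 RefSeq promoters of 300 bases. Snhg5 had 31 CpG pairs and both motifs, Ift27 had 12 CpG pairs and 3 NFY matches, and Arhgef3 had 4 CpG pairs and neither motif. A match is a run of letters and was not tested as a binding site.

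Snhg5 (chr9:88522898-88523147, minus strand): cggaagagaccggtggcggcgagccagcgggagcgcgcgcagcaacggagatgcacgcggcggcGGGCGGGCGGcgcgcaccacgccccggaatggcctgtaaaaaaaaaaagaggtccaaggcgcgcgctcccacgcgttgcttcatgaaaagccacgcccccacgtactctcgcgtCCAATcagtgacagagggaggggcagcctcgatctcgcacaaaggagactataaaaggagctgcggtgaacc
Ift27 (chr15:78174082-78174331, minus strand): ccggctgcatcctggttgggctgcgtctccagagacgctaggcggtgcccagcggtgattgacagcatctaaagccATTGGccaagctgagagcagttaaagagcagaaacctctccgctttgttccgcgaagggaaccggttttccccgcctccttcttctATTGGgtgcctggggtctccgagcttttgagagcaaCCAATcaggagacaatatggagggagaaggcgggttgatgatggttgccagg
Arhgef3 (chr14:27237760-27238009, plus strand): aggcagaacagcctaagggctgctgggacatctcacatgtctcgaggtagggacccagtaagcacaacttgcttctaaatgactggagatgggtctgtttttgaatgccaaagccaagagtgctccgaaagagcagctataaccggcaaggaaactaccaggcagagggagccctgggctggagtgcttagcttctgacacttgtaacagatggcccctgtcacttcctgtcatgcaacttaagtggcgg

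Sequencing depth was alike in the H3K27ac libraries and unlike in the inputs. The sedentary libraries C2 and C3 held 22400894 and 21796628 tags, and the detrained libraries 20805019 and 22350779. The sedentary input held 10812470 tags, 50.8% of the 21298438 in the detrained input, so input depth and group cannot be told apart. Of 8 defining skeletal muscle markers, 7 had a peak assigned to them in each list, with summed scores of 5826 in sedentary and 6033 in detrained muscle. Tnnt3 had none in either. Peaks were assigned by nearest start site, so a peak near a marker may stand under a neighbouring gene. Markers of other cells had peaks as well. Of 4 markers each, endothelial, fibroblast and smooth muscle cells had 4 with a peak in each list, immune cells 3 in sedentary and 4 in detrained muscle, satellite cells 3 in each, Schwann and erythroid cells 1 in each, and adipocytes 1 and 0. Summed scores were higher in detrained muscle for endothelial (3062 and 3292), immune (851.9 and 863.4), fibroblast (1804 and 2191), Schwann (93.4 and 106.6) and smooth muscle markers (505.3 and 518.2), and higher in sedentary muscle for satellite cell (1047 and 952.3), adipocyte (17.4 and 0) and erythroid markers (76 and 35). These sums come from pooled lists and have no measure of spread, and some gaps were small. The Schwann and erythroid sums each held 1 peak of 20 or more per list, and the adipocyte sums held 0. The part of these cells in the sedentary-only peaks was not tested.

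Sedentary-only peaks were mostly weak. Their median score was 30.1 (range 20.1 to 313.8), against 87.3 in sedentary peaks that overlapped a detrained peak. Of the 4222 peaks, 2109 (49.95%) scored under 30, 1415 scored from 30 to 50, 637 from 50 to 100 and 61 scored 100 or more. The highest of them ranked 3024 among the 34089 sedentary peaks, and all together held 3.37% of the summed score. The share of sedentary peaks without an overlap fell from 40.3% at scores of 20 to 30 to 21.6% at 30 to 50, 7.18% at 50 to 100, 0.777% at 100 to 200 and 0.0656% (4 of 6098) above 200. In detrained muscle the same bins held 32.1%, 17.0%, 5.13%, 0.435% and 0 of 6003 peaks, the last with a 95% Wilson interval up to 0.0640%. Below the score minimum, where the rule does not reach, 84.0% of sedentary and 81.3% of detrained peaks under 10 lacked an overlap. Just inside the minimum lay peaks at Haus7, Igdcc4 and Sipa1l2, each with a score of 20.1, and just outside it lay peaks at Pax7, Tmbim1 and Gas8, each at 19.9. The plot of shares by Peak Score sets both lists side by side.

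**Figure D1:**
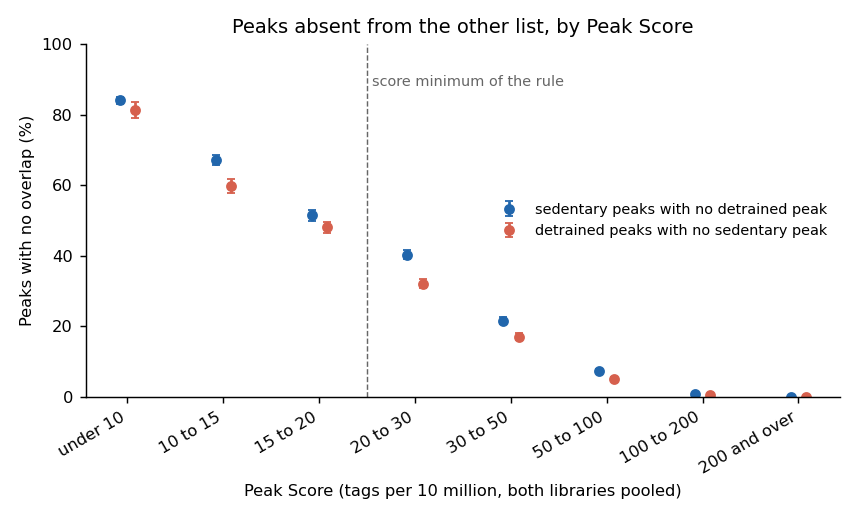
Share of peaks (%) with no overlap in the other list, by Peak Score (tags per 10000000, both libraries pooled), for sedentary and detrained peaks; bars are 95% Wilson intervals, which cover counting error only. The share fell from 84.0% to 0.0656% in sedentary and from 81.3% to 0% in detrained muscle.

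Within each score bin, sedentary-only peaks were spread over a longer interval than peaks found in both lists. Their median length was 1436.5 bp (500 to 10978), but the higher ones were long. The bins narrow the gap in score without closing it, with median scores of 24.2, 36.9, 62.2 and 119.5 in sedentary-only peaks and 24.9, 39.1, 70.6 and 187.3 in overlapping ones. From scores of 20 to 30 up to 100 or more, the median lengths were 1220, 1603, 2271 and 3880 bp, against 1118, 1499, 2036 and 3470 bp for overlapping peaks. The score per kb was lower, with medians of 19.8, 23.1, 28.4 and 30.9 against 22.1, 25.8, 34.0 and 58.7. At 100 or more the median log2 fold over input was 2.35 in 61 sedentary-only peaks and 2.996 in 13372 overlapping ones, but those reached scores of 6668.2 against 313.8, so the gaps in fold and in score per kb there are not at like scores. Of these 61 peaks, 38 (62.3%) lay under a log2 fold of 2.5, against 13.1% of the overlapping peaks. At scores of 20 to 30 the medians of the log2 fold were 2.30 and 2.32. The mirror set had the same traits. Detrained-only peaks had median lengths of 1280, 1628.5, 2182.5 and 4248 bp in the 4 bins, against 1160, 1559, 2063 and 3556 bp for overlapping detrained peaks, and at 100 or more a score per kb of 27.5 against 56.9 and a log2 fold of 2.24 against 2.89, there too with unlike median scores of 117.05 and 184. Because the score minimum and the absence of an overlap chose the members, these differences describe the set and were not tested.

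Both sedentary libraries, whose pooled tags chose the peaks, lay above the input at nearly every one of them. The peaks had been called on the pooled libraries at 2-fold over this input. The lowest log2 fold in the sedentary list was 1.78. Standing above the input, here and below, was thus largely fixed by that choice. On the regularized log2 scale of the deposited table, C2 and C3 were each at least 1 above the input at 4221 of the 4222 peaks. The median difference of C3 minus C2 was 0.01 (SD 0.31 over peaks), and C3 was the higher library at 2182 peaks (51.7%). When the pooled score was shared between the libraries by their log2 values and total tags, both reached 20 at 3648 peaks (86.4%). The libraries were more than 0.5 apart at 442 sedentary-only peaks (10.5%), against 6.25% of the overlapping peaks, and more than 1 apart at 10. Within bins the spread was closer, with SDs of the log2 difference between the libraries of 0.33 and 0.34 from 20 to 30, 0.30 and 0.30 from 30 to 50, 0.26 and 0.25 from 50 to 100, and 0.23 and 0.20 at 100 or more in sedentary-only and overlapping peaks. The most uneven peak lay at the promoter of the noncoding gene Gm20110, where C2 read 5.02, C3 read 6.23 and the input read 3.49. At Coro2b, which encodes an actin-binding coronin, C2 was the higher library, with 5.53 against 4.48 in C3. Gm20110 and Coro2b were chosen after their values were seen.

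The highest sedentary-only peak covered 10978 bp of a Map4 intron (chr9:110060461-110071439, mm10) and scored 313.8. Map4 encodes a microtubule-associated protein. In that peak C2 read 9.08, C3 read 9.21 and the input read 6.96. The nearest detrained peak, 1323 bp away, scored 9.04, and the gene had 8 overlapping sedentary peaks of up to 560.7. The second highest peak was assigned to the predicted gene Gm16364 (chr10:39645847-39649496, score 237.1), with 8.90 in C2, 8.53 in C3 and 6.08 in the input. Pik3r1, the regulatory subunit of phosphoinositide 3-kinase, held the peak in the printed stretch above (chr13:101735244-101741551, score 208.8), with 8.58, 8.53 and 6.46 in C2, C3 and the input. The next peak lay in the first intron of Klhl8, a kelch-like gene (chr5:103908013-103911614, score 208.2), with 8.47, 8.61 and 5.80. In these 4 peaks, the only sedentary-only peaks above 200, the H3K27ac libraries differed by at most 0.36 and both lay more than 2 above the input.

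The other 8 of the 12 highest peaks scored from 152.9 to 185.5. Rgl1, an exchange factor for Ral GTPases, had a peak of 185.5 with 8.41 in C2 and 8.35 in C3, against 6.40 in the input. Togaram1, a microtubule regulator of cilia, had a peak of 178.7 over its first exon with 8.33 in C2 and 8.32 in C3, against 6.14 in the input. Pdzrn3, a ubiquitin ligase with PDZ domains, had a peak of 169.2 with 8.14 and 8.35, against 6.03. These 3 peaks were about as high in both libraries. Pde7b, a phosphodiesterase that breaks down cAMP, had a peak of 165.4 with 8.29 in C2 and 8.12 in C3. An intergenic peak of 164.9 was assigned to Mascrna, a small RNA cut from the Malat1 transcript, and read 8.31 in C2 and 8.08 in C3. The nearest detrained peak, 7904 bp away, scored 6609.5. A Mascrna-assigned peak thus stood close to a detrained peak of very high score that overlapped another sedentary peak. Near 0610005C13Rik a peak of 162.5 read 8.03 and 8.33, at Klf6, a Krüppel-like factor, one of 162.0 read 8.02 and 8.32, and at Ppp2r2a, a regulatory subunit of protein phosphatase 2A, one of 152.9 read 8.02 and 8.17. In all 12 peaks both libraries lay above the input, which the peak calling required of their pool.

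The peaks with the highest fold over input were low in score and stood on a nearly empty input. At Tstd2 the peak scored 31.0, with 5.67 in C2, 5.65 in C3 and 1.81 in the input, a log2 fold of 4.97. Aak1, a kinase of endocytosis, had a log2 fold of 4.69, Zswim2 had 4.62, Nfia, a nuclear factor I gene, had 4.58, and Myo9b, an unconventional myosin, had 4.52. Their inputs read from 1.72 to 2.40, and their scores ran from 22.6 to 43.4. The plot of library values sets them beside the 12 highest peaks and the 6 highest promoter peaks.

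**Figure D2:**
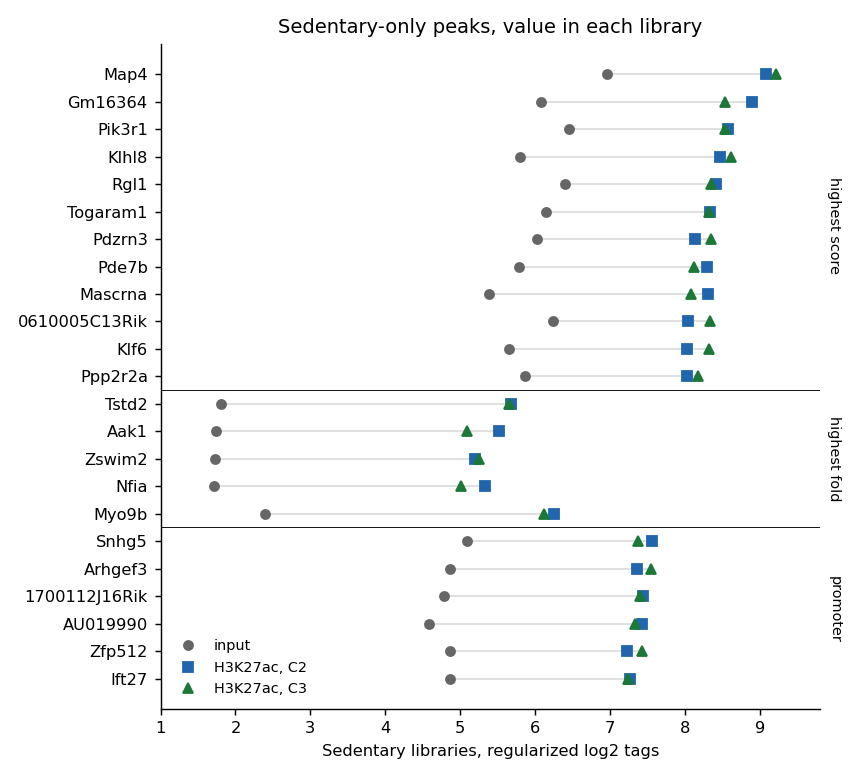
Regularized log2 tags in the 3 sedentary libraries (input, H3K27ac C2, H3K27ac C3; 1 point per library) at the 12 sedentary-only peaks of highest score, the 5 of highest fold over input and the 6 highest promoter peaks. Both H3K27ac points lay to the right of the input point at all 23 peaks, which had been called over that input. Inputs of the high-fold peaks lay between 1.72 and 2.40.

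By the authors' annotation, sedentary-only peaks lay in introns and seldom at promoters. Of the 4222 peaks, 2415 (57.2%) were intronic, 1366 (32.4%) intergenic and 200 (4.74%, 95% Wilson interval 4.14 to 5.42) at promoters, which the authors took as 1 kb before to 100 bp after a start site. Overlapping sedentary peaks were 47.7% intronic, 27.8% intergenic and 16.04% promoter peaks. Detrained-only peaks were 51.2% intronic, 36.6% intergenic and 5.47% promoter peaks. Put the other way, 4.01% of the sedentary promoter peaks were sedentary-only, against 14.5% of the intronic and 14.1% of the intergenic ones. Much of the promoter difference went with score. From 20 to 30, 30 to 50, 50 to 100 and 100 or more, promoter peaks made up 3.22%, 4.88%, 9.73% and 1.64% of sedentary-only peaks, and 4.13%, 6.73%, 14.7% and 23.3% of overlapping ones. Introns made up 57.0%, 55.9%, 59.5% and 68.9% of sedentary-only peaks in these bins, and 51.4%, 49.2%, 47.1% and 46.5% of overlapping ones. Intergenic peaks made up 33.5%, 33.6%, 26.5% and 24.6% of sedentary-only peaks, and 38.5%, 36.8%, 29.9% and 20.6% of overlapping ones. Intronic shares were above those of overlapping peaks in all 4 bins and promoter shares below them, though from 100 up the sets had unlike scores and 61 sedentary-only peaks, while the intergenic share, higher over all scores, was lower in the first 3 bins, as the plot of annotation classes shows.

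**Figure D3:**
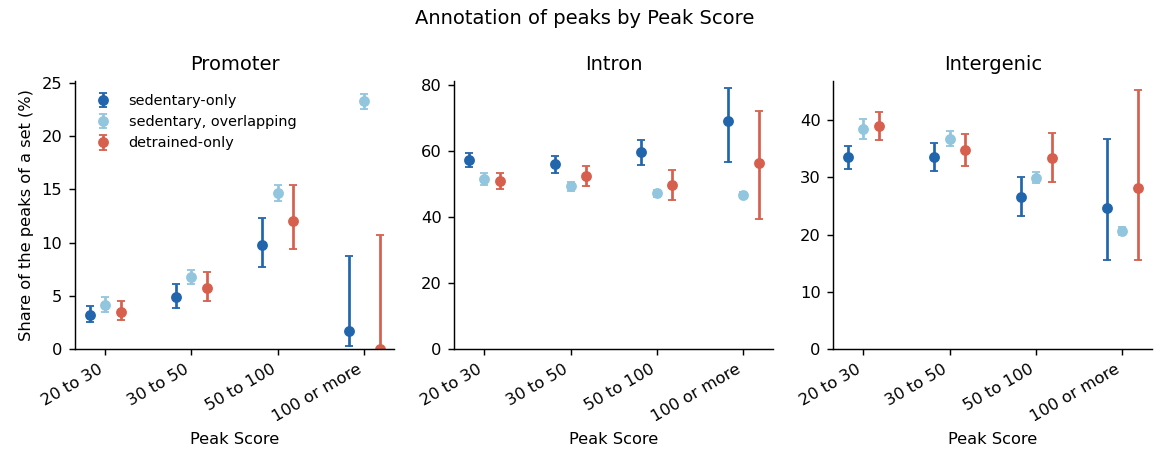
Share (%) of promoter, intronic and intergenic peaks, by Peak Score bin, in sedentary-only, overlapping sedentary and detrained-only peaks; bars are 95% Wilson intervals. At 100 or more, 1.64% of sedentary-only and 23.3% of overlapping peaks were promoter peaks, and 68.9% and 46.5% were intronic.

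Of the 200 promoter peaks, 178 lay at protein-coding and 21 at noncoding genes. Their median score was 37.2 and median log2 fold 2.28, against 129.4 and 2.91 for overlapping promoter peaks. At 100 of them the gene had no detrained peak of any score assigned to it, and at 9 it had another detrained promoter peak. The highest lay at Snhg5, a host gene of small nucleolar RNAs (chr9:88521872-88523898, score 100), with 7.56 in C2, 7.38 in C3 and 5.10 in the input. Its nearest detrained peak, 1958 bp away, scored 60.9. Arhgef3, a guanine nucleotide exchange factor, had a promoter peak of 99.1 (chr14:27235761-27239503) with 7.36 in C2, 7.55 in C3 and 4.87 in the input. At both genes both H3K27ac libraries lay more than 2 above the input. 1700112J16Rik followed with 96.6 and AU019990 with 94.3. Zfp512, a zinc finger gene, had 1 sedentary peak of 20 or more, at 90.7 (7.22, 7.43 and 4.86 in C2, C3 and input), and Ift27, an intraflagellar transport gene, had 1, at 86.2 (7.27, 7.24 and 4.86). No detrained peak was assigned to Zfp512 or Ift27, and the nearest lay 72564 and 15583 bp away.

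Detrained peaks were usually close by. The median gap from a sedentary-only peak to the nearest detrained peak was 5594 bp (quartiles 2207.5 and 15156.2 bp), against 5445 bp for the mirror set. A detrained peak lay within 1000 bp of 444 peaks (10.5%), within 5000 bp of 1958 (46.4%) and within 50000 bp of 3940 (93.3%). For 3397 peaks (80.5%) the nearest detrained peak overlapped another sedentary peak, and for 376 (8.91%) it was itself detrained-only. Over the whole detrained list, 3124 of 40721 peaks were detrained-only. Of its 33423 peaks of 20 or more, 30299 overlapped a sedentary peak. Neither share is therefore read as a trait of these neighbours. The closest pairs were 7 bp apart, at Itgb6 and at Runx1, and 8 bp apart at the 1810022K09Rik promoter. The most isolated peaks, in introns of the neuronal adhesion genes Pcdh9 and Ctnna2, lay 4206960 and 4075516 bp from a detrained peak, and the peak at C230029F24Rik lay 893709 bp away. These 3 isolated peaks were weak, with scores of 22.2, 24.0 and 21.9.

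The 4222 peaks were assigned to 3105 genes, by nearest start site. Of these genes, 2352 had 1 sedentary-only peak, 513 had 2 and 240 had 3 or more. At 2560 genes (82.4%) another sedentary peak of 20 or more overlapped a detrained one, and 889 genes (28.6%) also had a detrained-only peak. For 403 genes, holding 437 of the peaks (10.4%), no detrained peak was assigned to the gene. The genes with most sedentary-only peaks were 4933416E03Rik with 10 of 17, Mbnl1 with 9 of 18, and Pik3r1, Sgms1 and Prrx1 with 6 each, of 25, 23 and 15; 9530091C08Rik, Ank3 and Ltbp1 also had 6. Mbnl1 encodes a splicing regulator of muscle, Sgms1 a sphingomyelin synthase and Prrx1 a mesenchymal homeobox factor. The 10 peaks of 4933416E03Rik were spread over 372 kb and scored from 20.1 to 150.7, and 5 detrained-only peaks were assigned to the same gene. Sgms1 also had 5 detrained-only peaks, Mbnl1 had 3, Pik3r1 2, and Prrx1 and Ltbp1 1 each, whereas 9530091C08Rik and Ank3 had 0. The 9 peaks of Mbnl1 scored from 20.6 to 54.5, beside an overlapping peak of 3348.2.

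Where sedentary peaks without an overlap, weaker ones included, followed one another with no overlapping peak between them, they formed 85 runs with 3 or more members, of which 61 held no detrained peak. Most stood alone, 3149 of 4222 (74.6%). A run of 5 lay inside Pik3r1, chr13:101735244-101764159, with 5 sedentary-only peaks of 6 sedentary peaks in 28.9 kb and no detrained peak. Its sedentary-only peaks scored from 30.3 to 208.8, and the next highest, in the first intron, scored 71.5 with 6.90 in C2, 7.08 in C3 and 5.004 in the input. On either side the lists overlapped, with sedentary peaks of up to 507.3 and detrained peaks of up to 397.9 within 75 kb. Pik3ca, the catalytic partner of Pik3r1, had 5 sedentary-only peaks of 7, and 4 of them made a run of 19.4 kb without a detrained peak. Its highest scored 77.4, with 7.25 in C2, 6.95 in C3 and 5.22 in the input. The other run of 5 spanned Mr1 and Stx6 (chr1:155134422-155234701), with scores of up to 104.1 and 1 detrained peak inside. Runs of 4 included one at Ppp2r2a and Bnip3l, with scores of up to 152.9 and no detrained peak inside, and one at Ldhb and Kcnj8, with scores of up to 140.1 and 1 detrained peak inside. The plot of the loci shows Pik3r1, Pik3ca and 4933416E03Rik.

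**Figure D4:**
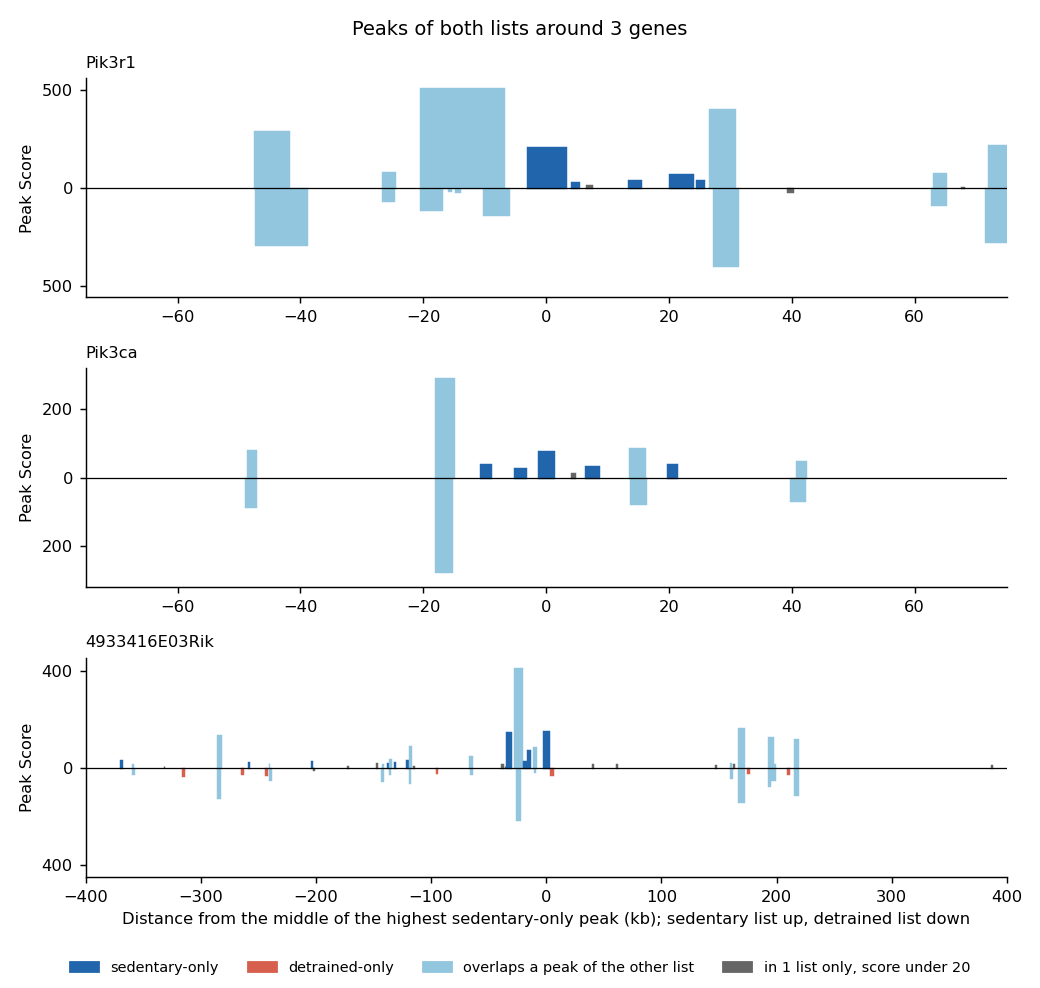
Peaks of the sedentary list (upward) and of the detrained list (downward) around Pik3r1, Pik3ca and 4933416E03Rik; the x axis is the distance in kb from the middle of the gene's highest sedentary-only peak, width is peak length and height is Peak Score. Around Pik3r1 5 sedentary-only peaks stood between overlapping peaks, around Pik3ca 5, and around 4933416E03Rik 10 sedentary-only peaks stood beside 7 detrained-only ones of up to 35.7.

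Gene lists for muscle and its other cells, 21 lists with 511 genes, held 195 sedentary-only peaks of 1590 (12.3%), against 12.4% of all peaks. None of these 195 was a promoter peak, against 200 of all 4222 sedentary-only peaks (4.74%). How many of the 1590 were promoter peaks is not given here, so the absence is not read as a trait. The counts and the named peaks run by nearest start site, so a peak given to a gene can lie far from it or inside another gene. Some genes stand in more than 1 list, and lists were described and not tested.

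The list with the highest share was that of insulin signalling, AMPK and glucose uptake, with 33 of 139 sedentary peaks (23.7%) in 14 of the 26 genes with a sedentary peak, and with 10 detrained-only of 121 detrained peaks (8.26%). By score, 15 of 22 peaks from 20 to 30 (68.2%), 11 of 28 from 30 to 50 (39.3%) and 7 of 89 above 50 (7.87%) were sedentary-only, against 40.3%, 21.6% and 3.13% of all peaks. Pik3r1 held 6 of the 33, and Pik3ca and Tbc1d1 held 5 each. In the signalling arm, Irs1, the insulin receptor substrate, had peaks of 31.0 and 23.3, Igf1r of 29.4 and 22.2, and the kinase gene Akt2 of 22.2. The adaptors Grb14 and Grb10 had 26.9 and 25.3, the growth factor Igf1 had 35.1 and the transcription factor Foxo1 had 20.8. These were weak peaks, all under 40. In the AMPK arm, Prkaa2, a catalytic subunit, had an intronic peak of 70.1 with 6.78 in C2, 7.13 in C3 and 5.003 in the input. Camkk2, an upstream kinase of AMPK, had 50.2, and Prkag3, the muscle-type regulatory subunit, had 35.1. Tbc1d4 and Tbc1d1 encode Rab GTPase-activating proteins that hold back the glucose transporter. Tbc1d4 had 4 sedentary-only peaks of 9, the highest of 69.9 with 6.89 in C2, 7.00 in C3 and 4.57 in the input, and Tbc1d1 had 5 of 18, up to 50.5. Irs1 and Prkaa2 also had overlapping peaks of up to 1345.3 and 1705.8. The rule for naming covers Pik3r1 and Pik3ca, and the other genes of the list are given because they make up its count.

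Of the contractile lists, the skeletal muscle identity list had 9 of 63 peaks (14.3%), in 4 genes, near the share of all peaks. By score these were 2 of 8 from 20 to 30 (25%), 6 of 8 from 30 to 50 (75%) and 1 of 47 at 50 or more (2.13%). All peaks had 40.3%, 21.6% and 3.13% in these bins. The median score of the list was 156.3, against 74.4 for all peaks of 20 or more, so the shares over all scores compare unlike scores. Myl1, a fast myosin light chain gene, had a peak of 73.3 upstream, with 6.99 in C2 and 7.06 in C3 against 4.93 in the input. Ttn, for the giant spring protein titin, had 4, up to 43.0 (6.31 and 6.15 against 4.19). Myh4, the fast IIb myosin heavy chain gene of glycolytic fibres, had 3, up to 36.9 (5.90 and 6.12 against 4.18). All 3 sedentary peaks of 20 or more assigned to Myh4 were sedentary-only, while the detrained peak assigned to it scored 800.4 and overlapped a sedentary peak assigned to a neighbouring gene. In the slow fibre list 2 of 34 peaks (5.88%) were sedentary-only, against 8 of 37 detrained-only (21.6%). They lay at Tnni1, slow troponin I, which scored 55.4 (6.48 and 6.72 against 4.21), and at Mybpc1, a myosin-binding protein, which scored 34.2 and lay 82 bp from a detrained-only peak of 28.3. The excitation-contraction coupling list had 10 of 92 (10.9%). Its highest lay in an intron of Cacna1s, the voltage sensor of the T-tubule, with 97.1 (7.32 and 7.54 against 5.02). Peaks were also assigned to Mrln, for a micropeptide that inhibits the calcium pump, with 73.5 (7.15 and 6.89 against 4.85), and to Stac3, for an adaptor of the calcium channel, with 52.7 (6.64 and 6.41 against 4.33). These peaks lay at -52568 bp from the Mrln and -5431 bp from the Stac3 start site, in introns of other genes.

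Regulators of muscle identity had 21 of 155 peaks (13.5%), close to the share of all peaks. Eya4, a transcriptional coactivator, held 5, of which the highest scored 87.3 (7.42 in C2, 7.10 in C3 and 4.77 in the input) and the second, in the printed stretch with MEF2 letters, 59.7 (6.72, 6.72 and 4.56). Pax3, a factor of muscle progenitors, had 3 of 4 sedentary peaks of 20 or more as sedentary-only ones, up to 75.8 (7.09, 7.04 and 4.57). In these 3 peaks C2 and C3 both lay more than 2 above the input. The clock list had 10 of 80 (12.5%), of which the nuclear receptor Rora held 5, up to 78.7. The immediate early list had 9 of 122 (7.38%), with Klf6 at 162.0, Dusp1, a phosphatase of MAP kinases, at 57.9, and Jun at 51.8. The atrophy list had 7 of 96 (7.29%), with Mstn, for myostatin, at 41.4, Fbxo30 at 41.0 and Sesn1 at 37.6. The myokine list had 10 of 77 (12.99%), with Gdf15, a stress cytokine, at 103.2 (7.57, 7.46 and 4.95), Angpt1, a ligand of the receptor Tek, at 79.9, and Bmp2 at 42.3.

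Of the metabolic lists, the oxidative and fatty acid list had 12 of 108 peaks (11.1%), and the glycolysis and glycogen list 7 of 91 (7.69%), against 1 of 91 detrained-only. From 20 to 30 and from 30 to 50 the oxidative list had 7 of 15 (46.7%) and 4 of 14 (28.6%). The glycolysis list had 1 of 6 (16.7%) and 5 of 11 (45.5%), and all peaks had 40.3% and 21.6%. Acsl1, which activates long-chain fatty acids, had the highest, at 91.4, with 7.03 in C2 and 7.57 in C3 against 4.11 in the input. It was among the uneven peaks, with the libraries 0.54 apart. Hadha, of mitochondrial fatty acid oxidation, had a peak of 42.1 (5.99 and 6.39 against 4.19), the single sedentary peak of 20 or more assigned to it. A peak assigned to Ucp3, an uncoupling protein, also had 42.1 (6.31 and 6.09 against 4.19). It lay at -42849 bp from the Ucp3 start site, in an exon of another gene. In glycogen and lactate metabolism, Ugp2, which makes UDP-glucose, had 58.4 and 42.1, and Ldhb had 39.6. None of the other 4 peaks of that list passed 40.

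Among genes of other cell types, the smooth muscle and pericyte list had 9 of 48 (18.8%) against 3 detrained-only of 38 (7.89%). By score these were 5 of 11 under 30 (45.5%), 3 of 7 from 30 to 50 (42.9%) and 1 of 30 above 50 (3.33%). All peaks had 40.3%, 21.6% and 3.13% in these bins, the first and last near those of the list. Kcnj8 and Abcc9 encode the pore and the sulfonylurea receptor of a vascular ATP-sensitive potassium channel and are neighbours on the chromosome. Kcnj8 had a peak of 140.1 (chr6:142565817-142571081; 7.77, 8.13 and 5.25 in C2, C3 and input) and one of 45.9 (6.24, 6.44 and 4.54), and no detrained peak was assigned to it. Both libraries lay above the input there, which the peak calling required of their pool. Abcc9 had 42.5 (6.20, 6.23 and 4.05) beside an overlapping peak of 443.5. At the 4 smooth muscle markers, 2 of 7 sedentary peaks were sedentary-only and 0 of 6 detrained peaks detrained-only, while the summed score was 505.3 in sedentary and 518.2 in detrained muscle. The immune list had 6 of 39 (15.4%), against 11 of 44 detrained-only (25%), and the Schwann cell and neuronal list 6 of 34 (17.6%), against 7 of 36 (19.4%), with Rbfox1, a splicing factor, at 73.8. The fibroblast and matrix list had 21 of 186 (11.3%), with Twist2, a bHLH factor of mesenchyme, at 102.9 (7.52, 7.53 and 5.58), Col5a2 at 53.6 and Fbn1, for fibrillin, at 52.3 (6.45, 6.59 and 4.44). The endothelial list had 13 of 115 (11.3%), with Ets1 at 58.1 and Tek, the angiopoietin receptor, at 38.2, where C2 read 5.62 and C3 read 6.41. Satellite cell, adipocyte, Hox and neuromuscular junction lists had 5 of 53, 4 of 43, 4 of 44 and 2 of 35, with the highest at Rapsn, which clusters acetylcholine receptors, at 66.5. The erythroid list had 0 of 3. The plot of gene lists gives both directions.

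**Figure D5:**
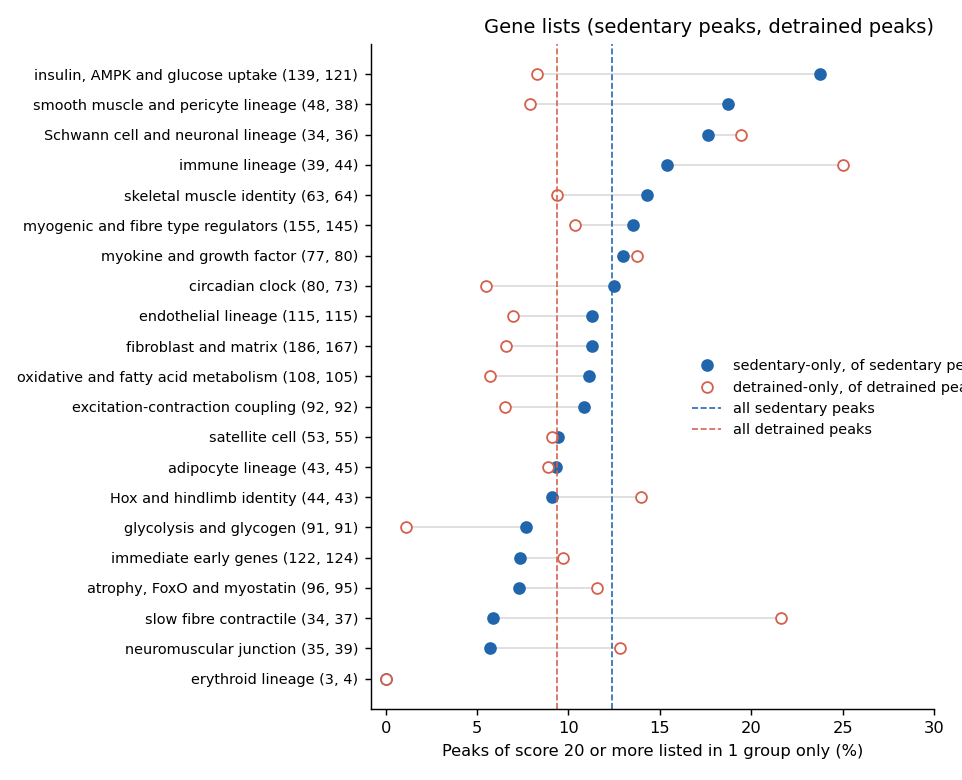
Share (%) of peaks of score 20 or more, per gene list, that were sedentary-only (filled, of sedentary peaks) or detrained-only (open, of detrained peaks); dashed lines are the shares of all peaks, 12.4% and 9.35%. The insulin, AMPK and glucose uptake list stood at 23.7% and 8.26%, the slow fibre list at 5.88% and 21.6%.

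The middle 500 bp of the sedentary-only peaks were poorer in CpG, over all scores, than those of overlapping peaks. The median GC content was 46.2%, against 49.6% for overlapping and 47.2% for detrained-only peaks. The median number of CpG pairs was 5, 8 and 6, and 20.6%, 40.4% and 24.7% of the windows had 10 or more. By score bin, from 20 to 30 up to 100 or more, 20.7%, 19.2%, 24.5% and 11.5% of sedentary-only windows had 10 or more, against 26.4%, 30.98%, 39.2% and 48.1% of overlapping ones. The gap was smallest from 20 to 30, where the median GC content was 46.4% against 48.2% with 6 CpG pairs in both. Masked repeats covered 15.9%, 13.7% and 14.4% of the windows on average. Letters of motifs were searched on both strands, and overlaps between motifs were allowed.

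MEF2 letters (CTATTTNTA) were in 223 of 4222 windows (5.28%, 95% Wilson interval 4.65 to 6.00), in 3.48% of overlapping and in 3.84% of detrained-only windows. From scores of 20 to 30 up to 100 or more they were in 5.17%, 4.95%, 6.28% and 6.56% of sedentary-only windows, and in 3.97%, 3.97%, 4.05% and 2.82% of overlapping ones, the last sedentary-only value from 4 of 61 windows. In the middle 200 bp the order did not hold in all bins, with 1.94%, 1.77%, 1.41% and 3.28% of sedentary-only and 1.54%, 1.75%, 1.82% and 1.09% of overlapping windows. ERR letters (TCAAGGTCA) were in 1.40%, 1.38% and 0.736% of sedentary-only, overlapping and detrained-only windows. AP-1 letters (TGANTCA) were in 16.2%, 14.95% and 20.3%. The AP-1 share was thus lower in sedentary-only than in detrained-only windows, and at scores of 20 to 30 the values were 17.3%, 18.6% and 20.3%. In the 500 bp windows it was also below that of overlapping windows in all 4 bins, the reverse of the order over all scores, but in the middle 200 bp it was above it from 20 to 30, at 8.44% against 7.99%. The E-box CAGCTG was in 29.8%, 29.0% and 31.3%, but by score it was in 30.6%, 29.8%, 27.8% and 24.6% of sedentary-only and in 32.97%, 32.1%, 30% and 26.3% of overlapping windows, lower in all 4 bins. TEAD letters (GGAATG) were in 26.1%, 24.4% and 27.02%. SP/KLF letters (GGGCGG), common at CpG-rich promoters, were in 12.5%, 27.3% and 14.1%. From 20 to 30 up to 100 or more, SP/KLF letters were in 11.7%, 12.7%, 15.5% and 3.28% of sedentary-only and in 14.4%, 18.7%, 26.7% and 34.04% of overlapping windows, lower in all 4 bins. NFY letters (CCAAT) were in 46.6%, 44.4% and 46.9%, the clock E-box (CACGTG) in 7.22%, 8.68% and 7.59%, and the steroid receptor pair (ACANNNTGT) in 15.8%, 13.7% and 17.2%. For ERR, TEAD, the clock E-box and the steroid receptor pair, which of the sedentary-only and overlapping windows had the larger share differed between score bins. The shares describe letters in the windows and say nothing of the factors.

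On the X chromosome few peaks were sedentary-only. They made up 31 of 670 X-linked peaks (4.63%), against 10.1% on chromosome 7 to 14.9% on chromosome 16 among the autosomes. From scores of 20 to 30, 30 to 50 and 50 to 100 the X-linked shares were 15.2%, 5.65% and 0.962%, against 40.9%, 22.04% and 7.33% elsewhere. The mirror set gave 34 of 705 X-linked peaks (4.82%), so the share was low in both lists.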

How the data were processed

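Reads of the H3K27ac and input libraries were aligned by the authors to mm10 with Bowtie (1.2 in the submitters' processing notes), keeping uniquely mapped reads, and 1 tag per position was kept in HOMER. Peaks of each group were called by the authors on both H3K27ac libraries pooled against the input of that group, at 2-fold and a false discovery rate of 0.05 by DESeq2. The deposited Peak Score is a signal, the pooled tags in a peak per 10000000. The deposited log2 values per library are regularized and normalized within a table. The log2 fold and adjusted p-value over input are the authors' own per peak. The log2 fold was used for ranking, for medians and shares that describe sets, and for the stricter setting. The adjusted p-value was used for the stricter setting only. The deposited peak length is end minus start.

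Both tables were normalized separately and hold no values of the other group's libraries, so tests between groups were not made. The columns C2 and C3 do not match the labels' numbering and were assigned to the group, not to a numbered mouse, and 0 columns of samples were left without a group. Members, gene lists and motifs were chosen with earlier results of these data known. 1 further motif is not reported here. Overlap meant at least 1 bp. Intervals are 95% Wilson intervals and cover counting error only. A library's own score was estimated from the pooled score, its log2 value and its total tags. Genes named with values were the 12 highest peaks, the 5 of highest fold, the 6 highest promoter peaks, the 5 longest, the 5 genes with most members, up to 3 peaks per list, the 3 on each side of the score minimum, and the 3 closest and 3 farthest from a detrained peak, and exceptions are said in the text. Sequences came from the RefSeq GRCm38 genome and promoter table (66 of 66 promoters compared were identical in both). The overlap step was tested on simulated data, where 200 of 200 peaks left out of a simulated second list were recovered among 46988. Python 3.11.15, numpy 2.4.6, pandas 2.3.3 and pysam 0.24.0 were used.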

Additional observations from a re-analysis of the deposited data

How the results depend on the processing

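Across 19 results and 77 alternative values, 32 stayed within their counting interval and 45 moved. Counts had to stay within 1.5 times and the library difference within 1 SD over peaks. Changes of direction were not scored. The median library difference went from 0.01 to -0.0368 when centred on the median over all sedentary peaks. With a score minimum of 10, 30 or 50, sedentary-only peaks numbered 8968, 2113 and 698, or 21.3%, 7.32% and 3.13% of sedentary peaks. Their promoter share was 3.45%, 6.25% and 9.03%, and their median length 1011, 1759 and 2322.5 bp. The intergenic share was 34.0% at 10 and 26.4% at 50. Detrained-only peaks numbered 6363, 1558 and 488, and listed genes held 413 peaks at 10 and 113 at 30. At a minimum of 4-fold over input and an adjusted p under 0.001 by the authors' DESeq2 test, the values were 978 peaks, 4.11%, a promoter share of 7.26%, an intergenic share of 29.96%, 2043.5 bp, a gap of 6064.5 bp and 893 detrained-only peaks. If a peak was removed only when detrained peaks covered at least 50% of it, 17.8% qualified, with a length of 1537 bp, a gap of 2504.5 bp and 5496 detrained-only. If a peak within 1 kb also removed it, 11.1% qualified with a gap of 6780 bp. If only detrained peaks of 20 or more counted, 16.01% qualified with a gap of 7117 bp, and 4906 were detrained-only. In 200 bp windows the share with MEF2 or ERR letters was 2.37%, against 6.68% in 500 bp, and each motif's own share fell too, as the window was shorter. The MEF2 share from 50 to 100 was then lower in sedentary-only (1.41%) than in overlapping windows (1.82%). Apart from that, the cause was not tested. Without 1 sedentary library the number was 4249 to 4298 (12.5% to 12.6%), and without 1 detrained library the mirror number was 3157 to 3183, but the intervals still came from both libraries pooled and only the score was estimated anew, so these values say nothing of stability across mice. The sedentary-only share exceeded the detrained-only share in all 10 settings, narrowest at 4.11% against 3.57%. No paired analysis was possible because the peaks came from pooled libraries and neither of the 2 peak tables used here holds tags of both groups.

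The main limits are 2 libraries per group, a sedentary input of 50.8% of the tags of the detrained one, and weak peaks, 49.95% of which scored under 30. Absence from the detrained list was not tested as a loss of acetylation, since the detrained table used here holds no value at these intervals.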
